A study of Mus musculus with 18 samples.

Results

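The expression of 10 genes of alternative activation and scavenger uptake was examined in bone marrow-derived macrophages (BMDMs) cocultured with renal tubular epithelial cells (TECs). The genes were Mrc1, Clec10a, Mgl2, Msr1, Marco, Stab1, Cd163, Olr1, Chil3 and Retnla. They were chosen by name, and each had 1 row in a table of 25926 genes. RNA-seq was performed in 18 samples, 6 in each of 3 groups. The BMDMs came from C57BL/6J mice, were grown in M-CSF at 50 ng/mL for 7 days and were placed in the upper part of Transwell plates with 0.4 μm pores, over TECs from wild-type mice in the lower part. In NC, the BMDMs received PBS and the TECs received no crystals. In COM, the BMDMs received PBS while the TECs were exposed for 24 h to calcium oxalate monohydrate (COM) crystals at 100 μg/mL. In COM+Met, the BMDMs above crystal-exposed TECs received Met at 5 mM for 24 h, and the sample labels do not spell this name out. No group had BMDMs without TECs or Met without crystals. Whether the 6 samples of a group were separate cultures or mice is not stated, so p-values reflect just the spread among these samples, and that spread may be technical.

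Levels are FPKM, which are mapped fragments scaled to gene length and to the total of the sample. The read depth behind a value is unknown, so no counting interval is given. FPKM summed to between 380731 and 449186 over the 18 samples, and COM-6 had the lowest sum. Over 10751 genes, samples correlated at 0.938 to 0.995 within NC, at 0.888 to 0.995 within COM and at 0.989 to 0.995 within COM+Met. NC-5 and NC-6 stood apart from the other NC samples, and COM-4, COM-5 and COM-6 from COM-1, COM-2 and COM-3. Results that rest on NC-5 and NC-6, or on COM-4, COM-5 and COM-6, are given with and without them. The labels mark neither split, and these samples were picked from the data. No fit left out COM-1, COM-2 and COM-3 together, so the omissions do not show which COM samples are typical. Each of 8 macrophage markers, Adgre1, Csf1r and Lyz2 among them, averaged 1 FPKM or more in every group. Their levels were not all constant, and the median of Adgre1 was 117 FPKM in NC, 557 in COM and 600 in COM+Met.

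In macrophages, IL-4 and IL-13 signal through receptors that carry the Il4ra chain to the transcription factor STAT6, and the programme that follows is called alternative activation. In mice it is recognised by surface lectins such as the mannose receptor (Mrc1) and the galactose-type lectins (Clec10a and Mgl2), and by the secreted proteins Chil3 (Ym1) and Retnla (Fizz1). Scavenger receptors are a mixed set of surface proteins that bind modified lipoproteins, microbial surfaces and dying cells and carry them into the cell. Among them, Msr1 and Marco are class A receptors, Stab1 clears modified proteins and lipoproteins, Cd163 takes up haemoglobin bound to haptoglobin, and Olr1 is a lectin-like receptor for oxidised low-density lipoprotein.

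The start regions of 8 of the 10 genes were found in RefSeq on GRCm38.p6, and Msr1 and Clec10a had no entry. The 250 bases before each start were searched on both strands for 5 motifs. These were TTC and GAA around a gap of 4 bases (STAT6), TTCNNNGAA (STAT), GAAA and GAAA around a gap of 2 bases (interferon response), GGG and CC around a gap of 5 bases (NF-kappa B) and TTGCNNCAA (C/EBP). Of 32851 promoters of that length, 5.85% held the STAT6 letters, 7.02% the STAT letters, 2.98% the interferon response letters, 45.8% the NF-kappa B letters and 1.74% the C/EBP letters. The STAT6 letters were found before Retnla, at bases -145 to -136 counted from the start, and the STAT letters before Chil3, at -172 to -164. These stretches are shown because both genes encode secreted products used as signs of signalling through STAT6. The stretches of Mgl2 and Marco are shown beside them as examples with the NF-kappa B letters, which were also found before Chil3. Bases in capitals are the motif matches, each sequence runs 5′ to 3′ on the strand of its gene, and bases that lie in an annotated exon are left out.
Retnla, chr16:48842359-48842550, plus strand: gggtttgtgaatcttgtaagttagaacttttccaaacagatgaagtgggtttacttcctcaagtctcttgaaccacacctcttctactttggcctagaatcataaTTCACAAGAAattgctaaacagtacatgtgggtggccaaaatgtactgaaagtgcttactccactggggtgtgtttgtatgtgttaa
Chil3, chr3:106167565-106167814, minus strand: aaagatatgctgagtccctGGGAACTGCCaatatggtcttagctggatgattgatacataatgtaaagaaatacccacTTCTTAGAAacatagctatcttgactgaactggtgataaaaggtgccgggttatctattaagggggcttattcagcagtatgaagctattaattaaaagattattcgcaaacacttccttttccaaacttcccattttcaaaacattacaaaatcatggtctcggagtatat
Mgl2, chr11:70130107-70130328, plus strand: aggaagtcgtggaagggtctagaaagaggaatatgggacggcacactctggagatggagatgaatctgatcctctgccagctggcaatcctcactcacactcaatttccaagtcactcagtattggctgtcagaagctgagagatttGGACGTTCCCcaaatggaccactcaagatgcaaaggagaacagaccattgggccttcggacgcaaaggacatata
Marco, chr1:120505025-120505274, minus strand: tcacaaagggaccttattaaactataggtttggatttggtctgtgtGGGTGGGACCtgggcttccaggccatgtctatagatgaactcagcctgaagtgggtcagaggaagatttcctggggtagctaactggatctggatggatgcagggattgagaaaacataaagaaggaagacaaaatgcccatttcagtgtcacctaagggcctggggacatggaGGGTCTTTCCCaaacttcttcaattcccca
In Marco the second run of capitals holds 2 overlapping matches, at -30 to -21 and -29 to -20. NF-kappa B letters also lay before Mrc1 (-11 to -2) and, with 2 matches, before Cd163. The match of Mrc1, the matches of Cd163 and a second match before Mgl2, at -14 to -5, lie in the bases left out. For Cd163 these are all 250 bases of the window. None of the 5 motifs was found in the windows of Stab1 and Olr1. A match only says that these letters are in the window.

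The level of each gene in every sample is plotted with its replicate number. In NC, the order by mean level was Chil3, Marco, Msr1, Mrc1, Olr1, Mgl2, Clec10a, Stab1, Cd163 and Retnla. Only Chil3 and Marco, and Olr1 and Mgl2, were neighbours in this order whose ranges over 6 samples did not overlap. In COM, Chil3, Marco and Msr1 led and overlapped in range, followed by Olr1, Stab1 and Mrc1, each apart in range from the gene above it. Mrc1 thus stood in the fourth place in NC and in the sixth in COM and COM+Met, while Stab1 stood in the eighth place in NC and in the fifth in COM and COM+Met. Retnla, Cd163, Clec10a and Mgl2 filled the lowest 4 places in COM and COM+Met.

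**Figure D1:**
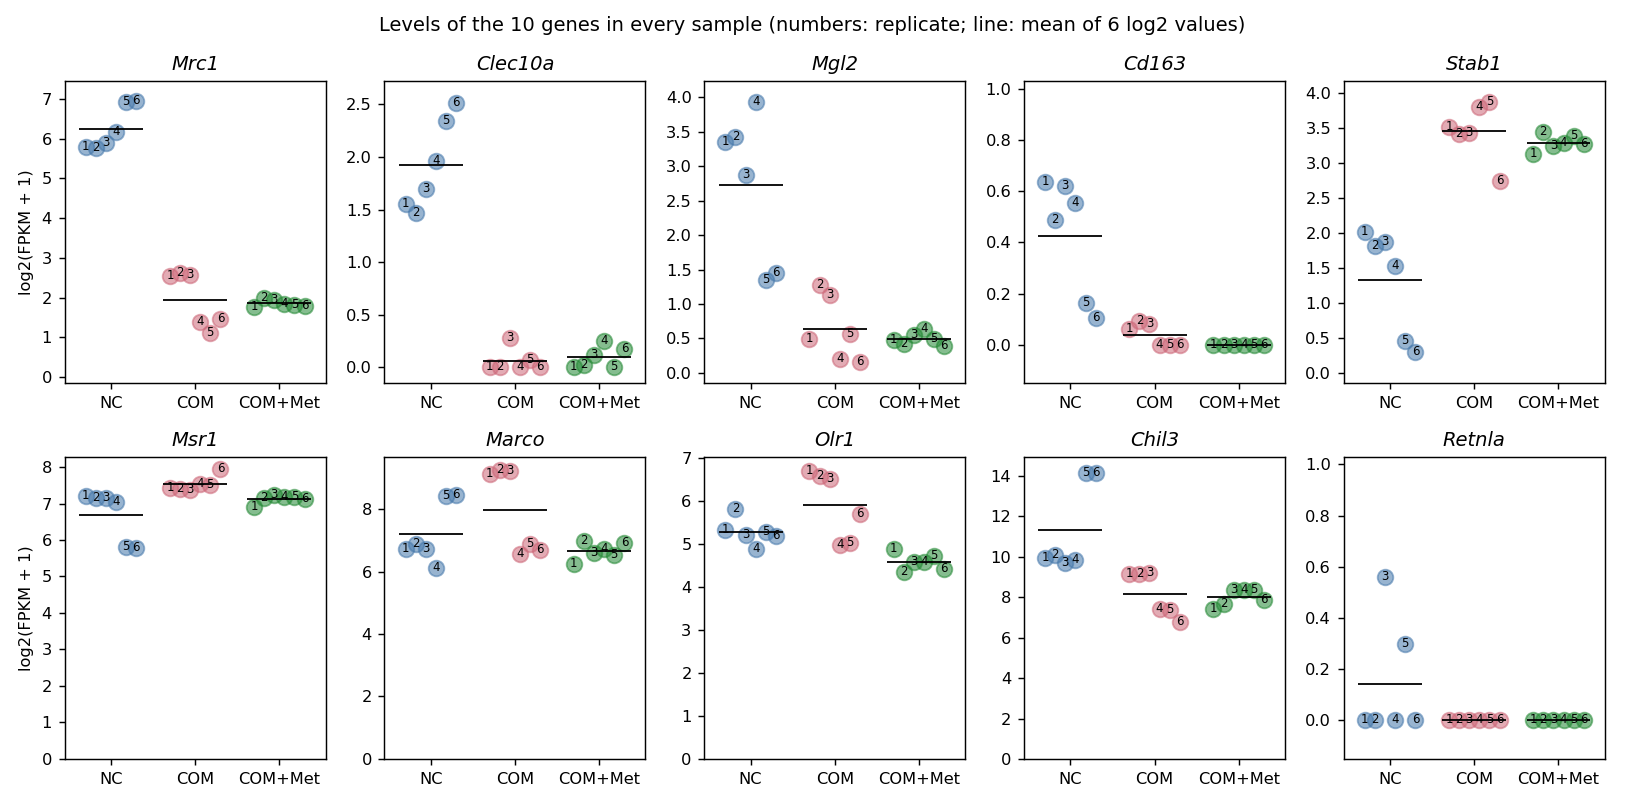
Levels of the 10 genes on the scale log2(FPKM + 1) in the 18 samples of the 3 groups. Each point is a sample marked with its replicate number, the line is the mean of the 6 log2 values, and each panel has its own axis. Mrc1, Clec10a, Mgl2, Chil3 and Cd163 lay lower in all 6 COM samples than in any NC sample, and Stab1 and Msr1 lay higher. Over all genes tested, the ranges of COM and NC did not overlap in 38.2%. For Chil3 and Marco the samples of a group fell far apart.

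The first comparison, COM against NC, asks how crystal exposure of the TECs related to the expression of these genes in the BMDMs across the membrane. Mrc1 and Chil3 were lower and Stab1 was higher in COM. A gene was called where the limma adjusted p was under 0.05 and the change was 2-fold or more. Changes are on a log2(FPKM + 1) scale, on which those of low genes are understated. Of the 10 genes, 8 reached a mean of 1 FPKM over the 12 samples and were tested, and 6 of these averaged 1 FPKM or more in both groups. Of the 6 genes, 3 were called, Stab1 higher and Mrc1 and Chil3 lower. Over all 10900 genes tested, 17.7% were called, 5.99% higher and 11.7% lower, and over the 10060 genes that averaged 1 FPKM or more in both groups 14.3%, 4.93% higher and 9.35% lower. Clec10a and Mgl2 averaged under 1 FPKM in COM and reached the limit only through their level in NC, which fixed the direction of their calls, so they are not counted here. With no filter on low values all 10 genes were tested, and 5 were called (Clec10a and Mgl2 lower, besides the 3), against 9.65% of 20315 genes. The ranges of the 6 COM and 6 NC samples did not overlap in 4 of the 6 genes, against 35.8% of the genes at that level and 38.2% of all genes tested. The median log2 fold change was 0.69 over the 6 genes and -0.25 over the genes at that level. The value of 0.69 falls between Olr1 (0.63) and Marco (0.74), neither of which was called. With Clec10a and Mgl2, over the 8 genes tested, the median was -0.62, so its sign depends on which genes are counted. Over all genes tested the median was -0.27, and division by size factors moved it to 0.0048. Relative to the median of -0.27, Mrc1 lay at -4.03, Chil3 at -2.87, Mgl2 at -1.82, Clec10a at -1.60 and Stab1 at 2.40.

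Mrc1, the mannose receptor, takes up glycoproteins with exposed mannose and lies on chr2:14229392-14332057 (plus strand, GRCm38). In NC it measured from 53.8 to 122 FPKM (median 64.5), in COM from 1.17 to 5.18 (median 3.32) and in COM+Met from 2.38 to 2.95 (median 2.53). Every NC sample lay above every sample of the other groups, NC-5 and NC-6 were the highest, and COM-1, COM-2 and COM-3 lay above COM-4, COM-5 and COM-6. The mean fell from 79.9 ± 32.5 FPKM in NC to 3.26 ± 1.93 in COM (SD, n = 6 each), which is 24.5-fold. The log2 fold change was -4.29 (SE 0.33, limma adjusted p = 6.08e-07), and it was -3.95 without NC-5 and NC-6 and -3.66 without COM-4, COM-5 and COM-6. As these are bulk samples, fewer cells of a type and less RNA per cell cannot be told apart.

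Clec10a and Mgl2 encode closely related lectins that bind galactose and N-acetylgalactosamine. They are neighbours on chr11, with Mgl2 at 70130329 to 70137550 and Clec10a at 70156197 to 70170834, both on the plus strand and 18646 bp apart. The longest transcripts aligned over 704 bases with 96.7% identity, and 242 of 1586 windows of 50 bases in Mgl2 (15.3%) were found without change in Clec10a, so that reads from these stretches could be split between them. Clec10a measured from 1.77 to 4.73 FPKM in NC (median 2.57), from 0 to 0.217 in COM, where 4 of 6 samples were listed at 0, and from 0 to 0.192 in COM+Met, where 2 of 6 were. COM and NC did not overlap, and the log2 fold change was -1.87 (SE 0.17, limma adjusted p = 1.24e-05 with no filter on low values). Mgl2 measured from 1.56 to 14.2 FPKM in NC (median 7.75) and from 0.119 to 1.41 in COM (median 0.443). The COM+Met samples held 0.315 to 0.560 FPKM of Mgl2, with a median of 0.396. NC lay wholly above the other groups, with a COM against NC log2 fold change of -2.09 (SE 0.45, limma adjusted p = 0.00353 with no filter).

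The pair differed within NC. Clec10a was highest in NC-5 and NC-6, at 4.08 and 4.73 FPKM, whereas Mgl2 was lowest there, at 1.56 and 1.72 FPKM. The level of Mgl2 was between 2.83 and 5.48 times that of Clec10a in NC-1 to NC-4, and 0.382 and 0.364 times in NC-5 and NC-6. Without NC-5 and NC-6, Mgl2 had a log2 fold change of -2.75 between COM and NC, while Clec10a then had a mean under 1 FPKM and was not tested.

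Stab1, on chr14:31139013-31168641 (minus strand), encodes stabilin-1, a large endocytic receptor. It measured from 0.234 to 3.02 FPKM in NC (median 2.21), from 5.68 to 13.7 in COM (median 10.1) and from 7.76 to 9.87 in COM+Met (median 8.70). All COM and COM+Met samples lay above all NC samples, and NC-5 and NC-6 were the lowest at 0.370 and 0.234 FPKM. The mean rose from 1.79 ± 1.21 in NC to 10.4 ± 2.86 in COM (SD, n = 6 each), 5.81-fold, with a log2 fold change of 2.13 (SE 0.32, limma adjusted p = 0.000132). It was 1.66 without NC-5 and NC-6 and 2.12 without COM-4, COM-5 and COM-6.

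Msr1, on chr8:39581685-39642673 (minus strand), measured from 54.4 to 147 FPKM in NC (median 136), from 164 to 244 in COM (median 177) and from 119 to 151 in COM+Met (median 143). The COM samples all lay above the NC samples, but NC-5 and NC-6 at 54.9 and 54.4 FPKM lay far under NC-1 to NC-4, which measured 132 to 147 FPKM. The log2 fold change between COM and NC was 0.83 (SE 0.27, limma adjusted p = 0.0203), under the 2-fold limit, and 0.39 without NC-5 and NC-6. With size factors it was 1.15 and passed the limit.

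Marco, on chr1:120474538-120505024 (minus strand), was the gene whose COM samples differed most among these 10 on the log2 scale. It measured 559, 603 and 597 FPKM in COM-1, COM-2 and COM-3 but only 94.2, 118 and 102 FPKM in the other COM samples (COM-4 to COM-6). In NC it measured from 68.1 to 117 FPKM in NC-1 to NC-4 and 339 and 347 FPKM in NC-5 and NC-6. The groups overlapped, and the log2 fold change was 0.74 (SE 0.61, limma adjusted p = 0.315). Without COM-4, COM-5 and COM-6 it was 1.98 (limma adjusted p = 0.00910) and Marco was called, whereas without NC-5 and NC-6 it was 1.35 (limma adjusted p = 0.0977).

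Olr1, on chr6:129485244-129507165 (minus strand), had the same division of COM samples. It measured from 28.7 to 54.9 FPKM in NC (median 37.1), 104, 94.9 and 89.8 FPKM in COM-1, COM-2 and COM-3, and 30.6, 31.4 and 51.3 FPKM in the other COM samples. COM-4, COM-5 and COM-6 lay within the range of NC, and the others above it. The log2 fold change was 0.63 (SE 0.31, limma adjusted p = 0.104), and 1.31 (limma adjusted p = 0.000158) without COM-4, COM-5 and COM-6. The summed level of dendritic cell markers divided the COM samples alike, at 310, 338 and 314 FPKM in COM-1, COM-2 and COM-3 and 130, 131 and 103 FPKM in the others. Ccr7 and Irf8 had the highest medians of these markers in COM, at 130 and 72.5 FPKM. Neutrophil markers summed to between 528 and 561 FPKM in COM-1, COM-2 and COM-3 and between 187 and 245 FPKM in the others, and the part of either cell type in the levels of Marco and Olr1 was not tested.

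Cd163, on chr6:124304656-124330527 (plus strand), was under 1 FPKM in every sample. It measured from 0.0741 to 0.553 FPKM in NC (median 0.434) and from 0.0433 to 0.0661 in COM-1, COM-2 and COM-3, and was listed at 0 in the other COM samples and in all 6 COM+Met samples. Every NC sample lay above every COM sample (exact permutation test, two-sided, p = 0.0022, which is the lowest that 6 against 6 samples can give). As the depth is unknown, how precise such low values are cannot be given.

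Retnla, on chr16:48842551-48844461 (plus strand), is strongly induced by IL-4 in mouse macrophages. It was listed at 0.474 FPKM in NC-3 and 0.230 FPKM in NC-5, and at 0 in the other 16 samples. The groups overlapped (two-sided exact permutation test for COM against NC, p = 0.455), so no difference was detectable at these levels.

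Chil3, on chr3:106147554-106167564 (minus strand), encodes a secreted chitinase-like protein without chitinase activity and had the highest mean of the 10 genes in every group. It measured 972, 1097, 836 and 928 FPKM in NC-1 to NC-4 but 18218 and 18157 FPKM in NC-5 and NC-6. In those samples it was the highest of all genes in the table and made up 4.24% and 4.21% of summed FPKM, against 0.201% to 0.259% in NC-1 to NC-4, where it ranked between place 28 and place 43. In COM it measured from 560 to 587 FPKM in COM-1, COM-2 and COM-3 and from 108 to 170 FPKM in the others. In COM+Met it measured from 167 to 328 FPKM (median 280). All NC samples lay above all COM and COM+Met samples.

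The log2 fold change of Chil3 between COM and NC was -3.14 (SE 0.89, limma adjusted p = 0.00994). It was -1.73 without NC-5 and NC-6 (limma adjusted p = 0.0172), and -2.15 without COM-4, COM-5 and COM-6 (limma adjusted p = 0.139), where the gene was no longer called. On the log2 scale, the SD of Chil3 within NC was 2.20, the rank of 9 from the top among 10923 genes whose median SD was 0.159. Within COM it was 1.11, rank 204 of 10447, and within COM+Met 0.418, rank 149 of 10182.

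Chil4 (Ym2), the near neighbour of Chil3 and no member of the 10 genes, lies 33925 bp from it. Their transcripts aligned over 1535 bases with 94.7% identity, and 275 of 1490 windows of 50 bases (18.5%) were shared, so reads of the pair could be split. Chil4 measured 0.474, 2.26, 2.02 and 1.99 FPKM in NC-1 to NC-4, 183 FPKM in NC-5 and 16.0 FPKM in NC-6. NC-5 and NC-6 thus differed widely in Chil4 while they were nearly equal in Chil3. Among other cell types, eosinophil and basophil markers summed to 141 and 150 FPKM in NC-5 and NC-6 and to between 71.0 and 96.9 FPKM in NC-1 to NC-4, and neutrophil markers to 539 and 561 FPKM against 891 to 1027 FPKM. Single genes weigh heavily in these sums. In NC, Ear6 alone ran from 40.1 to 108 FPKM and Mmp8 alone from 97.8 to 482 FPKM. Epx, Mpo, Ly6g and Retnlg were under 1 FPKM in every NC sample, so the sums do not establish a shift of cell types. The part of other cells in the Chil3 level was not tested.

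The second comparison, COM+Met against COM, asks how Met related to these genes while the TECs were exposed to crystals. Olr1 was lower with Met, and Mrc1, Stab1 and Chil3 were tested and not called. Of the 10 genes, 6 averaged 1 FPKM or more in these 12 samples. Of these, 1 was called (Olr1, lower), against 2.22% of 10364 genes tested, 0.608% higher and 1.61% lower. The ranges did not overlap in 2 of the 6 (Olr1 and Msr1), against 11.2% of all genes. The median log2 fold change was -0.28 over the 6 genes, all of which lay under 0, and 0.0033 over all genes.

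Olr1 measured from 19.3 to 28.5 FPKM in COM+Met (median 23.0), which lay wholly under the COM range of 30.6 to 104 FPKM. Its mean fell from 66.9 ± 33.1 FPKM in COM to 23.2 ± 3.35 in COM+Met (SD, n = 6 each), with a log2 fold change of -1.33 (SE 0.30, limma adjusted p = 0.0121). The gap was small for COM-4 and COM-5, at 30.6 and 31.4 FPKM against at most 28.5 FPKM, and the log2 fold change was -2.01 without COM-4, COM-5 and COM-6. Against NC, COM+Met was lower as well, with no overlap and a log2 fold change of -0.70 (SE 0.13, limma adjusted p = 0.000373), under the 2-fold limit.

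Msr1 showed a smaller difference of the same sign. Its mean was 185 ± 29.6 FPKM in COM and 140 ± 11.1 in COM+Met (SD, n = 6 each), the ranges did not overlap, and the log2 fold change of -0.40 (SE 0.11, limma adjusted p = 0.0290) was under the 2-fold limit. Marco measured from 74.2 to 124 FPKM in COM+Met (median 99.9), which overlapped COM-4, COM-5 and COM-6 and lay under COM-1, COM-2 and COM-3. Its log2 fold change was -1.30 (SE 0.51, limma adjusted p = 0.109). Marco was called without COM-4 (-1.57, limma adjusted p = 0.0446), without COM-6 (-1.55, limma adjusted p = 0.0368) and without COM-4, COM-5 and COM-6 together (-2.54, limma adjusted p = 3.88e-08).

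For Mrc1 the log2 fold change between COM+Met and COM was -0.10 (SE 0.26, limma adjusted p = 0.836), for Stab1 -0.17 (SE 0.16, limma adjusted p = 0.518) and for Chil3 -0.17 (SE 0.43, limma adjusted p = 0.830). In Mrc1 and Chil3 the COM+Met samples lay between COM-1 to COM-3 and COM-4 to COM-6, apart from COM+Met-1 in Chil3, at 167 FPKM, which lay under COM-4 at 170 FPKM. Without COM-4, COM-5 and COM-6, Chil3 was called lower (-1.16, limma adjusted p = 0.000462), and Mrc1 had a log2 fold change of -0.73 (limma adjusted p = 2.91e-06), under the 2-fold limit. The genes called in that fit were then 3 of 6 (Marco, Olr1 and Chil3), and 7.43% of all genes. Clec10a, Mgl2 and Cd163 were under the level limit in both groups, with overlapping ranges and p of 0.578, 0.472 and 0.182 by two-sided exact permutation tests. The spread differed as well: the SD of Marco on the log2 scale was 1.36 in COM and 0.270 in COM+Met, and over all genes the median SD was 0.316 and 0.0953.

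The third comparison, COM+Met against NC, shares its samples with the other comparisons and is given for its own values. Mrc1 had a log2 fold change of -4.39, Chil3 of -3.31 and Stab1 of 1.96, with limma adjusted p of 9.44e-10, 0.00251 and 3.22e-05. Of the 6 genes that averaged 1 FPKM or more in both groups, these 3 were called, against 15% of 9873 genes at that level (5.14% higher and 9.91% lower). Over all 10786 genes tested, 19.3% were called (5.66% higher and 13.6% lower). Clec10a and Mgl2 averaged under 1 FPKM in COM+Met and again entered only through NC. With no filter their log2 fold changes were -1.83 and -2.23 (limma adjusted p = 2.03e-06 and 0.000599), and 5 of the 10 genes were called, against 10.9% of 20076 genes. The ranges did not overlap in 4 of the 6 genes, against 55.4% of the genes at that level and 57.6% of all tested. The median was -0.63 over the 6 genes and -0.23 over the genes at that level. Msr1 and Marco overlapped between the groups, with log2 fold changes of 0.44 and -0.56 (limma adjusted p = 0.140 and 0.189). Without NC-5 and NC-6 these were -0.0080 and 0.051, so their signs rested on NC-5 and NC-6. Cd163 was listed at 0 in all COM+Met samples and above 0 in all NC samples.

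**Figure D2:**
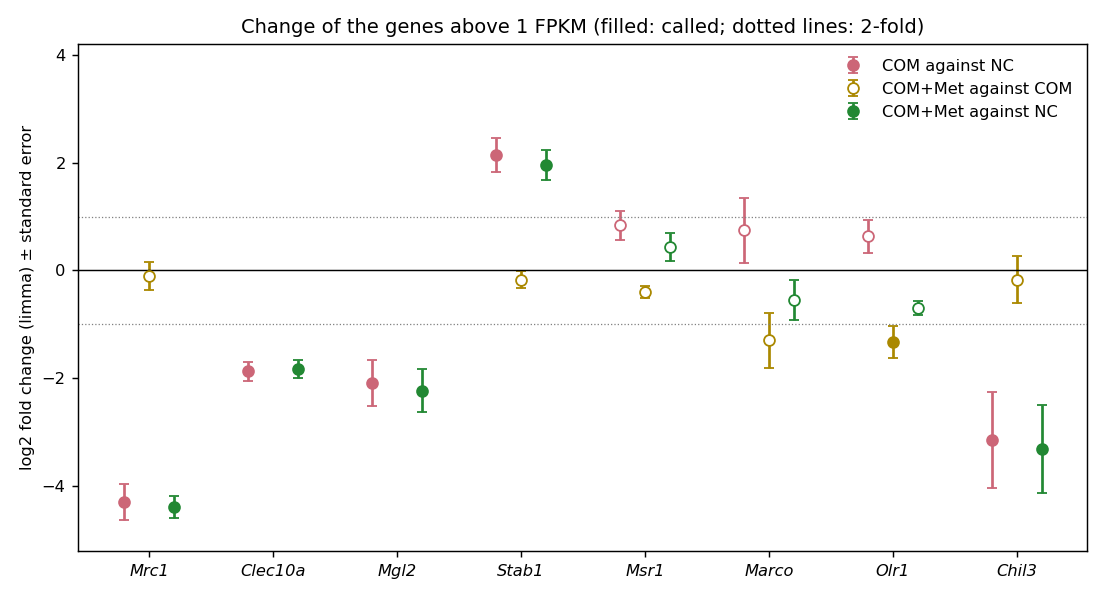
Log2 fold changes from limma on log2(FPKM + 1), with bars of ± 1 SE, of the genes that averaged 1 FPKM or more in the 12 samples of each comparison. Filled points were called, and dotted lines mark 2-fold. Clec10a and Mgl2 entered only through their level in NC. Mrc1 lay at -4.29 in COM against NC and at -4.39 in COM+Met against NC, and Olr1 was the gene called in COM+Met against COM at -1.33.

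**Figure D3:**
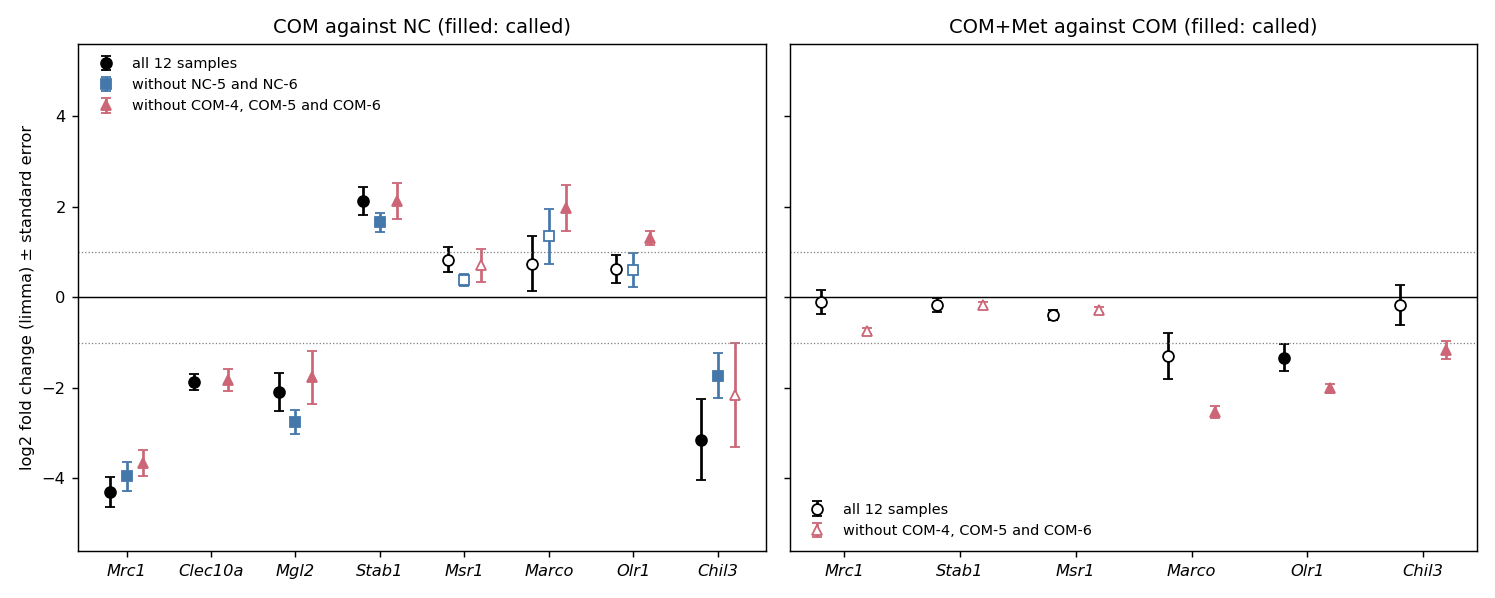
Log2 fold changes with bars of ± 1 SE from all 12 samples, without NC-5 and NC-6, and without COM-4, COM-5 and COM-6. Filled points were called and dotted lines mark 2-fold. Marco moved from 0.74 to 1.98 in COM against NC and from -1.30 to -2.54 in COM+Met against COM when COM-4, COM-5 and COM-6 were left out, while Stab1 moved from 2.13 to 1.66 without NC-5 and NC-6.

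Other genes of the pathway were then read from 5 lists. Of 9 genes of IL-4 and IL-13 receptors and signalling, all 9 averaged 1 FPKM or more in both COM and NC, 1 was called higher and 0 lower, against 14.3% of all genes at that level, and the median log2 fold change was 0.05 against -0.25. The called gene was Socs1, an inhibitor of cytokine signalling, which rose from 2.13 ± 1.33 to 14.8 ± 8.87 FPKM (log2 fold change 2.26, limma adjusted p = 0.000535). Il4ra, the shared receptor chain, ran between 17.0 and 20.2 FPKM in NC and between 11.8 and 27.9 in COM, so its ranges overlapped. Between COM+Met and COM, 0 of the 9 were called by limma, against 2.22% of all genes tested, and 0 had an unadjusted p below 0.05. Between COM+Met and NC, 2 of the 9 were called higher, Socs1 and Il2rg, against 15% of all genes at that level.

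Of 12 regulators of alternative activation, 10 averaged 1 FPKM or more in both COM and NC. Of these, 2 were called lower (Klf4 and Egr2) and 0 higher, against 9.35% and 4.93% of all genes at that level, with a median of -0.31 against -0.25. Myc and Pparg averaged under 1 FPKM in COM and entered only through NC, so they are given from the fit with no filter. Myc fell by 3.20 on the log2 scale (limma adjusted p = 3.23e-08), from 11.3 ± 1.92 to 0.328 ± 0.153 FPKM. Pparg, a lipid-activated nuclear receptor, fell from 12.9 ± 6.70 to 0.651 ± 0.440 FPKM (limma adjusted p = 1.68e-05). Klf4, a zinc finger transcription factor, fell by 2.15 (limma adjusted p = 8.18e-05), from 23.3 ± 13.3 to 3.88 ± 0.644 FPKM. The samples of the groups did not overlap for Myc, Pparg and Klf4, and without COM-4, COM-5 and COM-6 Klf4 was called and Egr2 was not. In COM+Met against COM, 0 of 10 tested were called by limma, against 2.22% of all genes tested. An adjusted p below 0.05 was found for 2, against 1384 of 10364 genes, and an unadjusted p below 0.05 for 3. In COM+Met against NC, 3 of the 10 at that level in both groups were called, all lower, against 9.91% of all such genes.

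The remaining effector genes of alternative activation moved in both directions. Of 16, 8 averaged 1 FPKM or more in both COM and NC, 2 of them called higher and 3 called lower, against 4.93% and 9.35% of all genes at that level, and the median was -0.27 against -0.25. Ccl22, a chemokine that attracts T cells through Ccr4, rose by 3.57 on the log2 scale (limma adjusted p = 0.000401), from 28.2 ± 21.3 to 252 ± 97.5 FPKM. Arg1, Cdh1 and Chil4 averaged under 1 FPKM in COM and entered only through NC. With no filter, Cdh1, the adhesion protein E-cadherin, fell by 3.14 (limma adjusted p = 1.98e-07), from 12.9 ± 3.14 to 0.555 ± 0.215 FPKM. It is also an epithelial gene, and of the other 11 tubular epithelial markers none had a mean of 1 FPKM in any group. Chil4 had a log2 fold change of -2.46 with overlapping groups and was not called with no filter (limma adjusted p = 0.0712). With Met, against COM, 1 of 8 was called, against 2.22% of all genes tested. This was Il1rn, an antagonist of IL-1, which fell by 1.00 (limma adjusted p = 0.0470), with overlap and a median of -0.82 over the 8 genes. Without COM-4, COM-5 and COM-6, 7 of these 8 were called, of which 1 was higher and 6 were lower, against 7.43% of all genes in that fit. Il1rn was then not called, nor was it without COM-6 alone or with no filter. Against NC, 7 averaged 1 FPKM or more in both groups, and of these 1 was called higher in COM+Met (Ccl22) and 3 lower, against 5.14% and 9.91% of all genes at that level, with Fn1 (fibronectin) at -2.79.

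Of 16 other scavenger receptors, 10 averaged 1 FPKM or more in both COM and NC, 3 were called higher and 3 lower, against 4.93% and 9.35% of all genes at that level, and the median was -0.48 against -0.25. Cd14, a coreceptor for lipopolysaccharide, rose by 2.86 on the log2 scale, Cxcl16, a membrane-bound chemokine that binds oxidised lipoprotein, by 2.57, and Scarf1, a class F scavenger receptor, by 2.30, with limma adjusted p of 0.000141, 0.00141 and 4.89e-05. Cd36, Scarb1 and Colec12 were called lower. Without NC-5 and NC-6, Cd5l was called and Cd36 was not, and without COM-4, COM-5 and COM-6 Colec12 alone was called lower. Cd36, which takes up oxidised lipoprotein and fatty acids, was the gene of this list called in COM+Met against COM, where it fell by 1.41 (limma adjusted p = 0.00507) from 74.8 ± 33.9 to 25.1 ± 2.90 FPKM with no overlap. Against NC, 3 of 10 were called higher in COM+Met and 4 lower, against 5.14% and 9.91% of all genes at that level.

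Of 10 genes of IL-10 and glucocorticoid response, 9 averaged 1 FPKM or more in both COM and NC, 1 was called higher and 3 lower, against 4.93% and 9.35% of all genes at that level, with a median of 0.06 against -0.25. Socs3, an inhibitor of IL-6 signalling that IL-10 induces, rose by 1.90 on the log2 scale, while Anxa1 and Fkbp5, which glucocorticoids induce, fell by 1.60 and 1.59, with limma adjusted p of 0.00641, 8.04e-06 and 0.000102. Without COM-4, COM-5 and COM-6, Anxa1 and Fkbp5 were called and Socs3 was not. With Met, against COM, 0 of 9 were called by limma, against 2.22% of all genes tested. An adjusted p below 0.05 was found for 2, against 1384 of 10364 genes, and an unadjusted p below 0.05 for 3. Against NC, 2 of the 9 were called higher in COM+Met and 3 lower, against 5.14% and 9.91%.

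**Figure D4:**
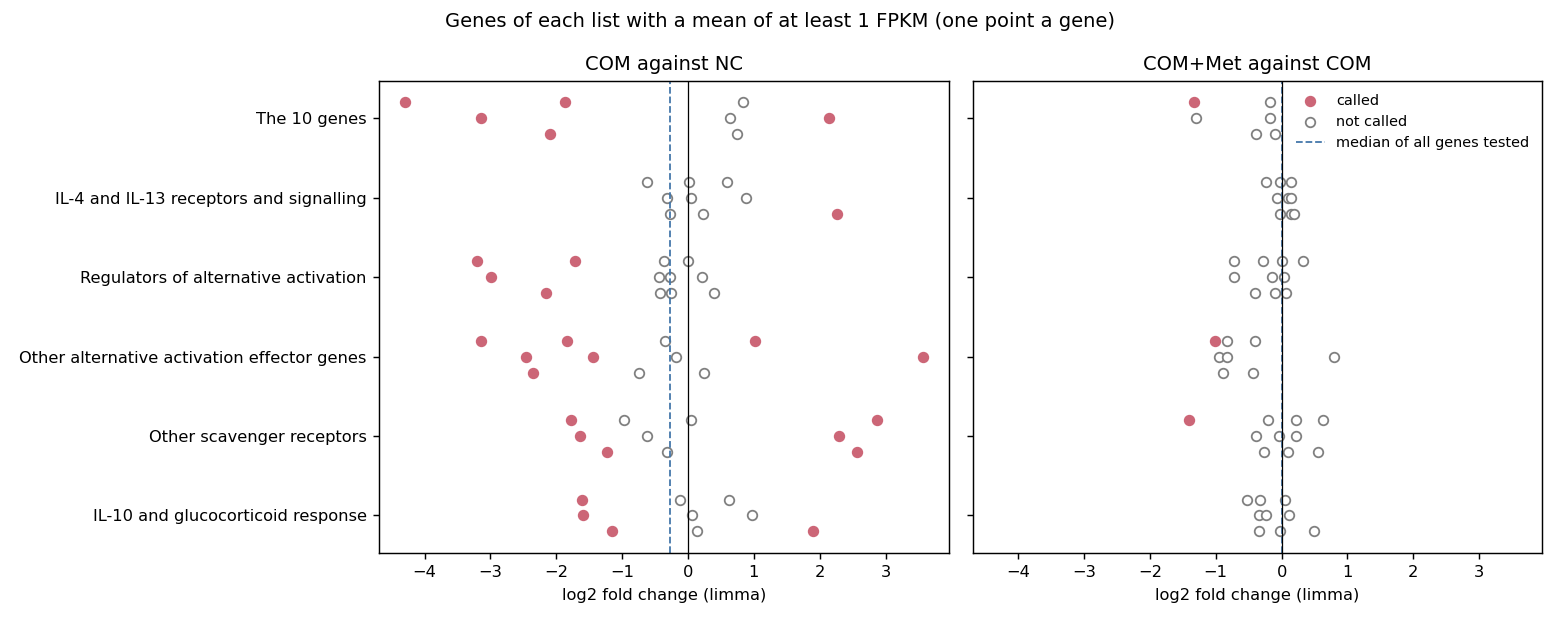
Log2 fold changes from limma of each gene averaging 1 FPKM or more in the 10 genes and the 5 other lists, for COM against NC and COM+Met against COM. Each point is a gene, filled where called, and the dashed line is the median of all genes tested, -0.27 and 0.0033. In COM against NC the called regulators lay under 0, Myc and Pparg of them tested only through NC, whereas called scavenger receptors lay on both sides, and in COM+Met against COM 3 points in all were called.

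Of 8 macrophage markers, 3 were called higher in COM than in NC (Adgre1, Fcgr1 and Cd14) and 0 lower. Over all genes averaging 1 FPKM or more in both groups, 4.93% were called higher. The same 3 were called higher in COM+Met than in NC, against 5.14%. Markers of other cell types were read for the same groups. Summed levels of 10 eosinophil and basophil markers ran from 71.0 to 150 FPKM in NC (median 90.1), from 7.32 to 22.0 in COM (median 13.9) and from 3.57 to 8.72 in COM+Met (median 3.91), and 3 of them averaged 1 FPKM or more in both COM and NC. All 3 were called lower in COM (Siglecf, Ear1 and Ear6), against 9.35% of all genes at that level, and Prg2, Mcpt8 and Cpa3 entered only through NC. Prg2, an eosinophil granule protein, ran from 0.889 to 8.81 FPKM in NC, and Epx from 0.140 to 0.896 FPKM in NC and was listed at 0 in every COM and COM+Met sample. Summed neutrophil markers ran from 539 to 1027 FPKM in NC, from 187 to 561 in COM and from 86.9 to 145 in COM+Met. Of 12 neutrophil markers, 3 were under 1 FPKM in every NC sample and 4 were listed at 0 in every COM sample (Elane, Mpo, Ly6g and Retnlg), while Camp was not called in COM against NC (log2 fold change 0.77, limma adjusted p = 0.0625). Stromal markers summed to between 24.6 and 79.8, 7.38 and 44.5, and 3.62 and 9.04 FPKM, although Pdgfrb among them rose in COM by 1.43 on the log2 scale (limma adjusted p = 0.000403). The sum of 10 dendritic cell markers went the other way, at 32.4 to 81.4 FPKM in NC (median 71.7), 103 to 338 in COM (median 221) and 90.9 to 140 in COM+Met (median 118). Ccr7 and Irf8 had the highest medians among them in COM, at 130 and 72.5 FPKM. Of the 10, 4 averaged 1 FPKM or more in both COM and NC, and 1 was called (Ccr7, higher), against 4.93% of all genes at that level. Irf8 was under the 2-fold limit (log2 fold change 0.84, limma adjusted p = 0.0136), and Clec9a lay at -0.57 (limma adjusted p = 0.276). Ccr7 rose in COM by 3.83 on the log2 scale (limma adjusted p = 0.000243), Flt3, which entered only through COM, by 1.26 (limma adjusted p = 0.0034 with no filter), and Cd209a was listed at 0 in every COM and COM+Met sample. The part of these other cell types in the results for the 10 genes was not tested.

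For each gene that averaged 1 FPKM or more over the 18 samples and ranged over 2 log2 units or more, the 3 genes with the most similar profile were sought among 10323 genes, by the root mean square (RMS) difference of log2(FPKM + 1) centred on the mean of the gene over the 18 samples. The nearest to Mrc1 were Top2a, Plk1 and Ccna2, at 0.24, 0.26 and 0.26 log2 units, over a range of 5.82 log2 units for Mrc1. Top2a, a DNA topoisomerase, measured from 26.1 to 55.3 FPKM in NC, from 0.540 to 2.32 in COM and from 0.636 to 0.879 in COM+Met. The nearest to Clec10a were Ska2, Sgo1 and Ska3, at 0.10, 0.12 and 0.14 log2 units over a range of 2.52.

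The nearest to Stab1 were Cd1d1, Sod2 and Zmynd15 (0.23, 0.23 and 0.25, over a range of 3.57), to Msr1 Cd80, Bcl6 and Dusp16 (0.16, 0.18 and 0.18, over 2.14), to Mgl2 Fam43a, Eef1a2 and Avil (0.25, 0.31 and 0.32, over 3.76) and to Olr1 Pcdh7, Treml4 and Serpine2 (0.27, 0.27 and 0.30, over 2.36). The nearest to Marco were Prom1, Cav2 and Ifitm10 at 0.55, 0.58 and 0.59 log2 units over a range of 3.13, and to Chil3 Perp, Bok and Flvcr2 at 0.71, 0.77 and 0.83 log2 units over a range of 7.39. Perp measured from 7.72 to 62.2 FPKM in NC and at most 0.923 FPKM in COM and 0.0999 FPKM in COM+Met. The points share libraries, and the likeness is a description without a test.

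**Figure D5:**
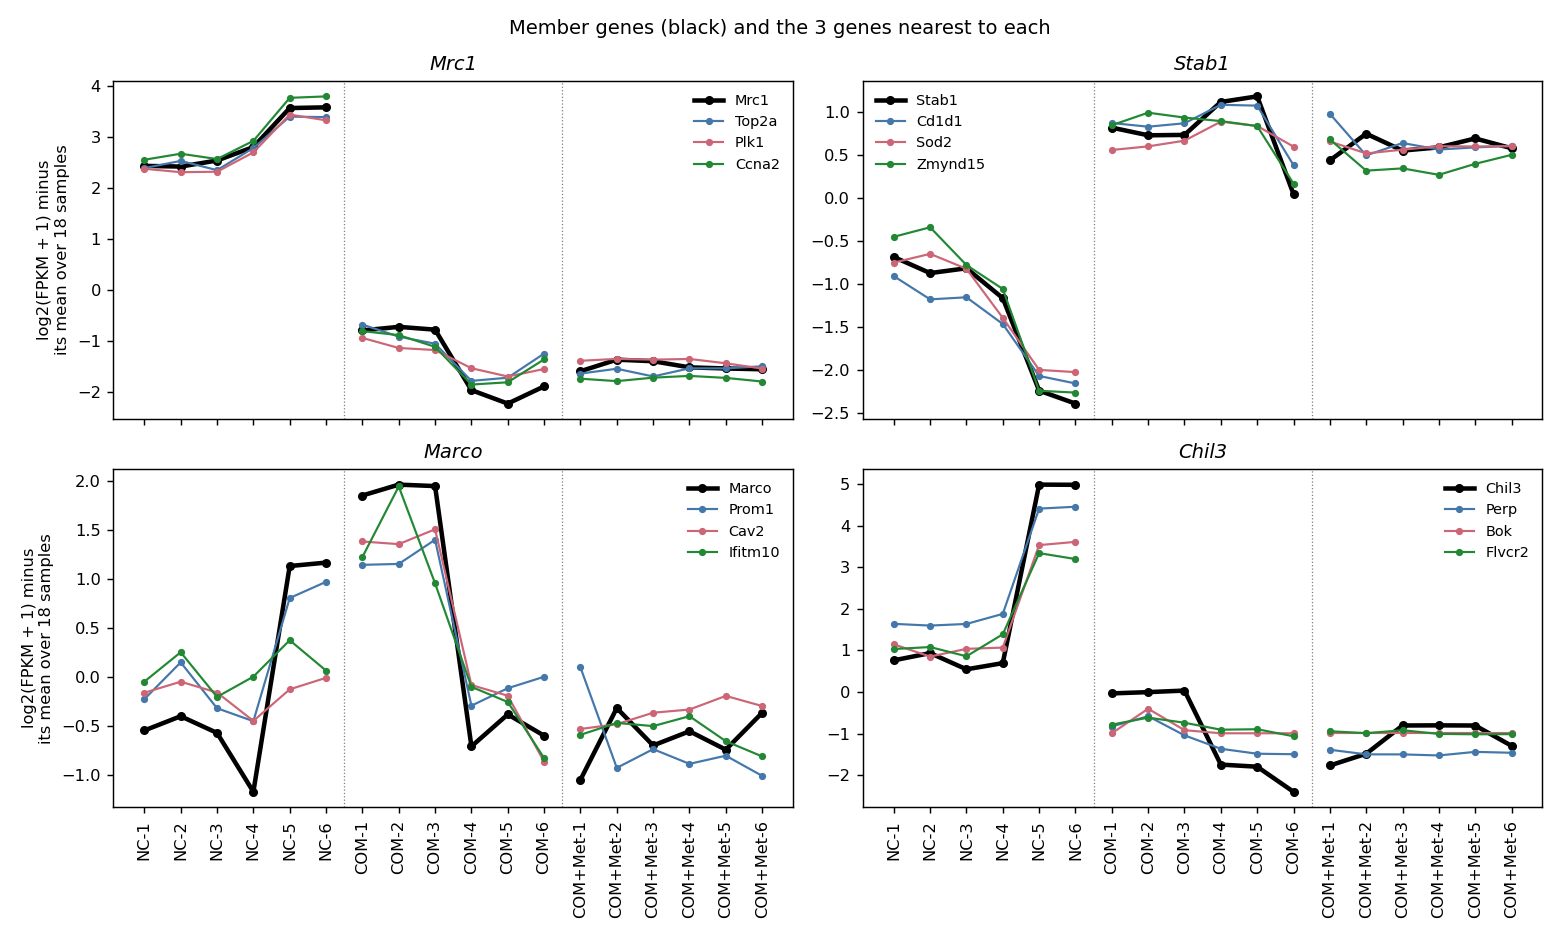
Profiles of Mrc1, Stab1, Marco and Chil3 (black) and of the 3 nearest genes to each (coloured) over the 18 samples, as log2(FPKM + 1) minus the mean of the gene over the 18 samples. Lines join samples of a group for reading only, since replicates have no order. The genes nearest to Mrc1 and Stab1 lay within 0.26 RMS log2 units, while those nearest to Chil3 lay at 0.71 to 0.83, and Chil3 ranged over 7.39 log2 units against 5.82 for Mrc1.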

How the data were processed

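RNA was sequenced from 18 BMDM samples, 6 in each of NC, COM and COM+Met. Sample labels gave the group and the replicate number. The authors deposited FPKM values per gene and sample, mapped fragments scaled to gene length and sample total, in a column per replicate. In the submitters' processing notes, Bowtie 0.12.2, mm8 and mm9 are named without roles. The program behind the FPKM values is not given in the sources used here. All 18 sample columns were used. FPKM gives no read depth, so precision rests on the spread between samples.

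Values were transformed to log2(FPKM + 1). Genes averaging 1 FPKM or more over the 12 samples of a comparison were tested with limma 3.58.1 (eBayes with trend, R 4.3.3), and p-values were adjusted by the Benjamini-Hochberg method across all genes tested. Calls in comparisons with NC were also counted over genes averaging 1 FPKM or more in both groups, a count added after seeing the data, and genes that reached the limit through 1 group alone are given from the fit with no filter. Single genes under this limit were compared by two-sided exact permutation tests of 6 against 6 samples. Python 3.11.15 was used for tables and plots, and Biopython 1.88 for transcript alignment. The fit was tested on simulated data with independent noise for each sample. That noise holds no split within a group, so the simulation cannot show how calls behave under the splits within NC and COM.

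The 10 genes and the lists were chosen with earlier results of these data known. Named besides the 10 genes are up to 3 called genes of each list and comparison with the largest change, the 3 genes nearest in profile, and markers that define a cell type. Il4ra, Egr2, Scarb1, Colec12, Cd5l, Arg1, Pdgfrb, Camp, Irf8, Clec9a and Fcgr1 fall outside this rule and were chosen after their values were seen. Positions of genes come from GENCODE M21 on GRCm38, which differs from the builds in the notes, and promoters from RefSeq on GRCm38.p6.

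Alternatives were pseudocounts of 0.1 and 5, no filter, a filter of 5 FPKM, values rescaled to the same sum (TPM), size factors, quantile normalisation, a replicate block, all 18 samples in the same fit, arrayWeights, each sample left out, and the samples that stood apart left out.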

Additional observations from a re-analysis of the deposited data

Results flagged for a closer look

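In groups of 6 samples, a value was picked out when the gap to its nearest neighbour exceeded 0.625 of the range of the group (Dixon's limit), which chance alone exceeds in about 1 of 20 groups. Gaps and ranges were taken on the log2(FPKM + 1) scale. Of 27 groups of the 10 genes with values above 0, 2 were picked out. Msr1 measured 243.6 FPKM in COM-6, the highest of the COM samples, with a gap of 0.725 of the range. COM-6 also had the lowest summed FPKM, and without it the log2 fold change of Msr1 was 0.75 (limma adjusted p = 0.0373) in COM against NC. Clec10a measured 0.217 FPKM in COM-3, with a gap of 0.761 of the range, and 4 of the other COM samples were listed at 0.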

How the results depend on the processing

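The values are FPKM from 6 samples a group, with unknown depth, so the precision of low genes such as Cd163, Retnla and Clec10a is unknown, and changes of low genes depend on the pseudocount. Between COM and NC, 8 of the 10 genes were tested and 5 called, against 17.7% of 10900 genes tested. Of these 5, Clec10a and Mgl2 entered only through NC. With a filter of 5 FPKM, which tests fewer genes, 3 were called, against 1325 of 7629 genes. Counted over genes averaging 1 FPKM or more in both groups, 3 were called, against 14.3% of such genes. Over the alternatives Mrc1 (log2 fold change -4.72 to -3.31) and Stab1 (1.18 to 2.87) were called in all 24. Mgl2 was called in all 23 and Clec10a in 21 of 22, the exception being a pseudocount of 5 (-0.64). Where the filter let Clec10a and Mgl2 in through NC alone, the direction was fixed, so agreement among those fits gives no support. Chil3 was called in 22 of 24, the exceptions being arrayWeights (-1.06, limma adjusted p = 0.0519) and leaving out COM-4, COM-5 and COM-6. With arrayWeights Marco (2.29) and Olr1 (1.19) were called as well. Leaving out 1 sample at a time left 5 called, against 1727 to 2073 of all genes.

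Between COM+Met and COM, 1 gene was called, against 2.22% of all genes tested. With arrayWeights 2 were called, against 719 of 10364 genes. Without COM-4, COM-5 and COM-6 the count was 3, against 7.43% of all genes, and the reverse omission of COM-1, COM-2 and COM-3 was not fitted. From 1 to 2 were called when 1 sample at a time was left out, against 182 to 300 of all genes. Olr1 was called in all 23 alternatives (-2.01 to -1.17). The small differences of Mrc1 and Chil3 changed sign when COM-1, COM-2 or COM-3 was left out: Mrc1 then lay at 0.022, 0.036 and 0.025 and Chil3 at 0.022, 0.028 and 0.036, while their lowest values with another sample left out were -0.27 and -0.45. Between COM+Met and NC, 5 were called, against 19.3% of all genes tested, and Clec10a and Mgl2 again entered only through NC. With a filter of 5 FPKM 3 were called, against 1406 of 7576 genes. Counted over genes at 1 FPKM in both groups, 3 were called, against 15% of such genes. Without NC-5 and NC-6, Msr1 (-0.0080) and Marco (0.051) changed sign. The cause of these shifts was not tested.

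Over all genes, the calls between COM and NC were 1926 and 980 with a pseudocount of 5, and between COM+Met and NC 2078 and 1117. Between COM+Met and COM they were 230, against 370 and 90 with pseudocounts of 0.1 and 5, 719 with arrayWeights and 771 without COM-4, COM-5 and COM-6. Size factors changed the split of calls between COM and NC from 653 higher and 1273 lower to 864 and 821, and between COM+Met and NC from 611 and 1467 to 839 and 985.

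In a fit with a replicate block, 5, 1 and 5 of the 10 genes and 1920, 202 and 2080 of all genes were called in the 3 comparisons, and the block changed no call of the 10 genes. Deviations of same-numbered samples from their group means correlated at -0.222 to 0.057. In the 3 comparisons at most 1 of 6 samples of a group correlated best with the sample of its own number. The deviations include those of the samples that stood apart, so they cannot decide whether same-numbered samples were paired. The labels state no pairing.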
